A study of Mus musculus with 8 samples.

Results

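The 10 genes described here (Agt, Aqp4, Apoe, Aldh1l1, Slc1a2, Sparcl1, Id3, Acsbg1, S100b and Gfap) are markers of astrocytes, chosen by name out of the 55202 gene symbols in the count tables. These markers and the gene lists below were chosen with earlier results of these data known. Counts set beside shares of all genes are therefore descriptions, not independent checks. All 10 markers were found in the table of each line, and all 10 passed the filter on low counts. Bulk RNA was sequenced from hand-dissected subplate, the lowest neuronal layer of the developing somatosensory cortex, in mice of mixed strain on the day of birth (P0). Emx1Cre mutants carried the Emx1Cre11.5 driver with Lhx2lox/lox, Emx1Cre controls were labelled WT, NexCre mutants carried NexCre with Lhx2lox/lox, and NexCre controls were again labelled WT. Each group had 2 libraries, and every library came from 2 pooled brains (n = 2 pools in each group below). Emx1Cre recombines in the dorsal telencephalic progenitors that give rise to cortical neurons and astrocytes, whereas NexCre recombines in postmitotic excitatory neurons. The labels do not say whether controls carried a Cre allele, so an effect of Cre cannot be told apart from that of the Lhx2 deletion.

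Astrocytes arise from radial glia once neurogenesis slows, and around birth the rodent cortex holds few mature ones. The switch depends on Notch, BMP and JAK-STAT signalling and on NFI and SOX9 transcription factors. Lhx2, a LIM-homeodomain transcription factor, is known in mouse hippocampal progenitors for holding back the production of astrocytes. The products of the marker genes take up glutamate (Slc1a2), pass water (Aqp4), carry lipid (Apoe), act on synapses (Sparcl1), yield angiotensin peptides (Agt), run folate and fatty acid metabolism (Aldh1l1, Acsbg1), bind calcium (S100b), form filaments (Gfap) and inhibit basic helix-loop-helix transcription factors (Id3). None of these genes is exclusive to astrocytes: radial glia, vascular cells, microglia or oligodendrocyte precursors also express several of them.

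Library totals ran from 31266007 to 64569981 reads. The lines differed in composition: the small nuclear RNA Rn7sk stood at 1.42 to 32.4 CPM (reads scaled to a common library size) in Emx1Cre libraries and at 18425 to 23101 CPM in NexCre libraries. Mutants were therefore compared with controls of the same line, and the lines were set against each other only through these within-line differences. Single libraries also stood apart in summed levels of markers of neighbouring tissue. The summed level of 8 striatal markers was 462 CPM in Emx1Cre mutant 2 and 166 to 194 CPM in the other Emx1Cre libraries. The summed level of 7 thalamic markers was 346 CPM in NexCre control 1 and 80.8 to 100.0 CPM in the other NexCre libraries, and that of 6 choroid plexus and ependyma markers was 2085 CPM in NexCre mutant 1 and 22.4 to 383 CPM in the others. Markers of cortical excitatory neurons summed to 1487 to 2407 CPM across all libraries. Subplate markers summed to 296 to 392 CPM in the Emx1Cre line and to 73.1 to 85.7 CPM in the NexCre line, where Cplx3, a complexin of subplate neurons, stood at only 0.679 to 1.42 CPM. The targeted gene Lhx2 stood at 64.0 and 42.7 CPM in Emx1Cre mutants and 90.4 and 91.5 CPM in Emx1Cre controls, but at 227 and 245 CPM in the libraries labelled NexCre mutant and 182 and 236 CPM in NexCre controls. Its log2 fold change was −0.77 ± 0.20 in the Emx1Cre line (adjusted p 0.273 in edgeR's test and 0.0324 in DESeq2) and 0.18 ± 0.20 in the NexCre line. Counts per gene do not separate the deleted exons from the rest, so they do not check the NexCre labels.

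Promoter sequence is shown for 4 of the genes, picked because a window of each holds a motif of a factor family tied to astrocyte formation. A link between these motifs and the marker levels was not tested. RefSeq promoters (GRCm38.p6, the assembly also called mm10) were at hand for 8 of the 10 markers, in 10 windows of 250 bases before a transcription start, 3 of them for Apoe. Capitals mark TTCNNNGAA, the STAT palindrome, in Agt (chr8:124569707-124569956, minus strand) and in Acsbg1 (chr9:54661886-54662135, minus strand), TTGGCA, a core bound by NFI factors, in S100b (chr10:76253586-76253835, plus strand), and ACAAAG, a SOX core read here on the opposite strand, in Apoe (chr7:19699189-19699438, minus strand).
Agt: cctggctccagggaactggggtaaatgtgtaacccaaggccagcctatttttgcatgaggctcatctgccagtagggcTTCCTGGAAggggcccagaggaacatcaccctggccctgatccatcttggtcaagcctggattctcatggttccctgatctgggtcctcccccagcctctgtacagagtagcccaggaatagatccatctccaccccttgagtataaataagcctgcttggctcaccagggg
Acsbg1: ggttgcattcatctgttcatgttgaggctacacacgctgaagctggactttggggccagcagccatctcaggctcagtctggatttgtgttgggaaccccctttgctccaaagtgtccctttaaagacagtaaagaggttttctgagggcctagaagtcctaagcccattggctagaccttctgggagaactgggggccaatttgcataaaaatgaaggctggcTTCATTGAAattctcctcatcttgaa
S100b: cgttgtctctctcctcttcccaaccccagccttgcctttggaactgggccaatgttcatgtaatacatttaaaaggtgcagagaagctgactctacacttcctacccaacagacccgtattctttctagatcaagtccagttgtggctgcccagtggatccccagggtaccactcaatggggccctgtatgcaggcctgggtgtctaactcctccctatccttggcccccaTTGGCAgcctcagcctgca
Apoe: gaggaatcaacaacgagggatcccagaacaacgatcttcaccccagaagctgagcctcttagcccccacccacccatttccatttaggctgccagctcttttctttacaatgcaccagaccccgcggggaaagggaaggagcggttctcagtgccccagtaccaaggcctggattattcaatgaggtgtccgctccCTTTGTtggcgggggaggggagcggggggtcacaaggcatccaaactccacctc
The STAT palindrome began 172 bases before the start in Agt and 26 bases before it in Acsbg1. On either strand, TTCNNNGAA was found in 2 of the 10 windows and in 7.02% of all 32851 windows of this length. ACAAAG was found in 1 of 10 and in 16.5% of all windows, and TTGGCA in 2 of 10 (S100b and another Apoe start) and in 12.3%. The homeodomain core TAATTA, which LIM-homeodomain factors bind, was found in 0 of 10 and in 4.84% of all windows. No 2 of these matches overlapped within a window. A match describes the letters in the window and nothing more.

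All 10 astrocyte markers stood higher in both Emx1Cre mutant pools than in both Emx1Cre controls. Their log2 fold changes ran from 0.32 (Gfap) to 3.46 (Agt) with a median of 0.995, against a median of 0 over all 22820 genes tested. Both mutants lay above both controls in 15.1% of all genes tested, and the fold change was above 0 in 45.9%. Only Sparcl1 rose by the test across all genes, which was the quasi-likelihood test of edgeR at a Benjamini-Hochberg adjusted p of 0.05. That test called 0.0789% of genes, 0.0219% higher and 0.057% lower. Before adjustment, at p under 0.05, 8 of the 10 markers were higher and 0 lower, where 4.52% of all genes were higher and 3.07% lower, 7.59% in all. The summed level of the 10 genes was 4249 and 3638 CPM in Emx1Cre mutants and 1826 and 1762 CPM in Emx1Cre controls. DESeq2 called 7 of the 10 higher (Agt, Aqp4, Apoe, Aldh1l1, Slc1a2, Sparcl1 and Id3), where it called 0.84% of genes higher and 0.6% lower. In bulk tissue, more cells of a type and more RNA per cell cannot be told apart.

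**Figure D1:**
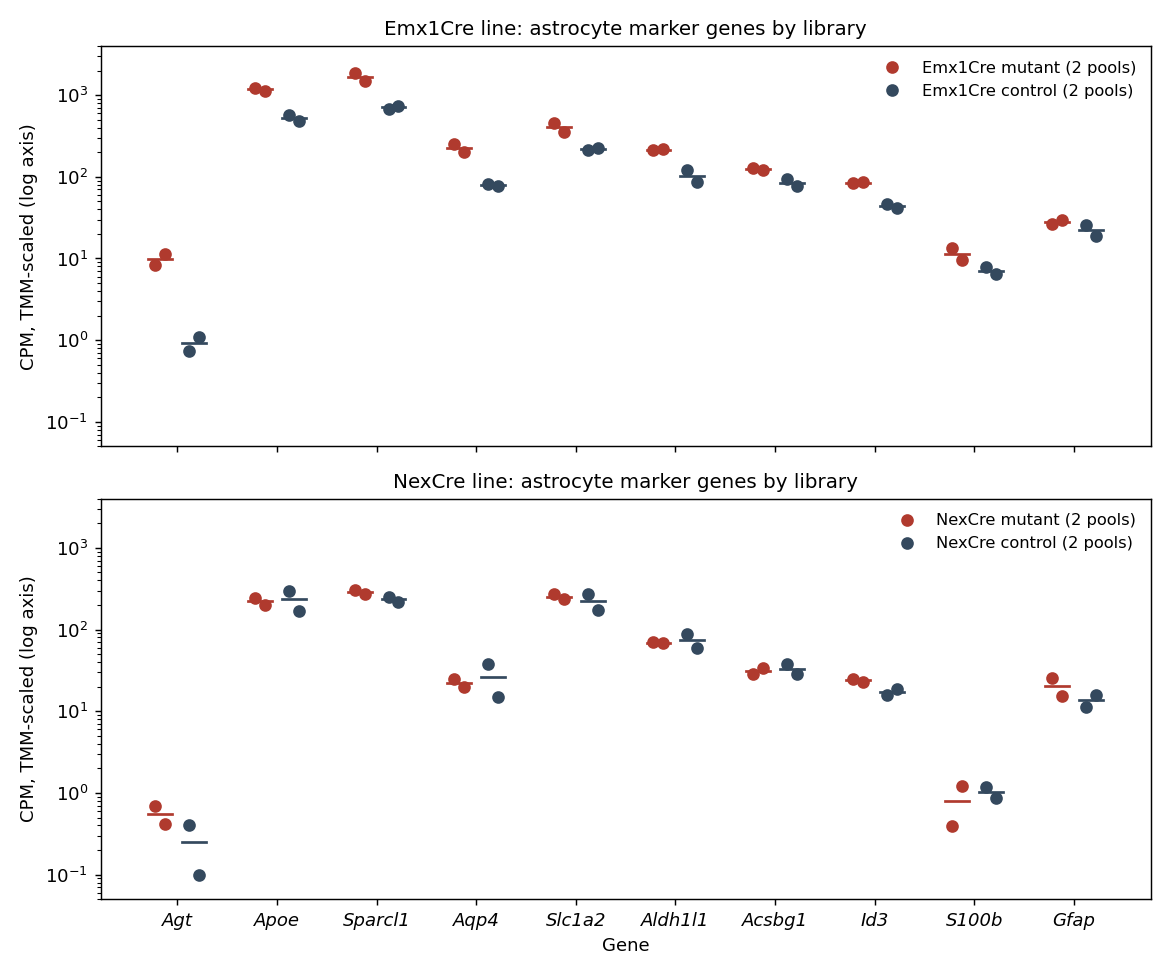
Expression of the 10 astrocyte markers in each library, as CPM scaled by TMM on a log axis, with the Emx1Cre line above and the NexCre line below; points are pools of 2 brains and short lines are group means (n = 2 pools). In the Emx1Cre line the red mutant points lie above the control points for every gene, while in the NexCre line the groups overlap for 7 of the 10 genes.

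Among the secreted products, Agt showed the largest change of the 10 markers. Agt (chr8:124556534-124569706, minus strand, mm10 as are all positions here) encodes angiotensinogen, the precursor of the angiotensin peptides. It had 476 and 464 reads in Emx1Cre mutants and 48 and 40 reads in Emx1Cre controls. On the scaled level this was 8.44 and 11.5 CPM in mutants, against 0.745 and 1.08 CPM in controls. The groups lay far apart, with a log2 fold change of 3.46 ± 0.53 (SE) and a 95% interval of 2.27 to 4.64. The adjusted p was 0.0719 in edgeR's test and 5.18e-09 in DESeq2. Agt was also the least abundant of the 10 genes per length in every group.

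Sparcl1 (chr5:104079111-104113733, minus strand) encodes hevin, a matrix protein that astrocytes secrete and that promotes the formation of excitatory synapses. It stood at 1842 and 1489 CPM in Emx1Cre mutants and at 667 and 744 CPM in Emx1Cre controls. The difference between group means was larger than the gap between the 2 pools of either group, with a log2 fold change of 1.24 ± 0.17 (95% interval 0.87 to 1.61). In edgeR's test its adjusted p was 0.0334. The call was lost when any 1 of 6 libraries was left out (either Emx1Cre mutant, either Emx1Cre control or either NexCre mutant), with adjusted p of 0.0552 to 0.0935 and log2 fold changes of 1.07 to 1.39.

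Apoe (chr7:19696109-19699188, minus strand) encodes apolipoprotein E, the main lipid carrier of the brain, and is also expressed by microglia and radial glia. It stood at 1224 and 1119 CPM in Emx1Cre mutants, against 570 and 484 CPM in Emx1Cre controls. The groups did not overlap. Its log2 fold change of 1.15 ± 0.25 had an adjusted p of 0.178 in edgeR's test and 0.000404 in DESeq2. Together Sparcl1 and Apoe made up 72.2% and 71.7% of the reads on the 10 genes in Emx1Cre mutants and 67.7% and 69.7% in Emx1Cre controls.

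Among the membrane proteins, Aqp4, the water channel of astrocyte endfeet, showed the larger change. It stood at 250 and 200 CPM in Emx1Cre mutants, against 81.2 and 76.3 CPM in Emx1Cre controls. Its log2 fold change of 1.52 ± 0.34 was second to that of Agt (adjusted p 0.193 in edgeR's test, 0.000361 in DESeq2). Slc1a2 (chr2:102658659-102790784, plus strand) encodes GLT-1, the glutamate transporter that clears most glutamate from adult synapses. Its levels were 461 and 358 CPM in Emx1Cre mutants and 214 and 228 CPM in Emx1Cre controls. The mutants differed more from each other than the controls did, and the log2 fold change was 0.89 ± 0.22 (adjusted p 0.234 in edgeR's test and 0.00739 in DESeq2).

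The metabolic enzymes differed in size of change. Aldh1l1 (chr6:90486427-90600203, plus strand), a folate enzyme widely used as a pan-astrocyte marker, had 213 and 216 CPM in Emx1Cre mutants and 120 and 85.3 CPM in Emx1Cre controls. Here the controls were the more variable group. The log2 fold change was 1.06 ± 0.21 (adjusted p 0.141 in edgeR's test and 0.000329 in DESeq2). Acsbg1 (chr9:54604877-54661870, minus strand), an acyl-CoA synthetase that activates long-chain fatty acids, had 128 and 120 CPM in Emx1Cre mutants and 93.1 and 76.7 CPM in Emx1Cre controls. Its log2 fold change was smaller, at 0.54 ± 0.17, and was called neither by edgeR's test (adjusted p 0.44) nor by DESeq2 (0.177).

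Id3 (chr4:136143497-136145755, plus strand), a target of BMP signalling that blocks basic helix-loop-helix factors and is also expressed in blood vessels, had the smallest standard error of the 10. Its levels were 82.9 and 85.2 CPM in Emx1Cre mutants, against 46.3 and 42.0 CPM in Emx1Cre controls. The groups were clear of each other, and the log2 fold change of 0.93 ± 0.16 had an adjusted p of 0.0965 in edgeR's test and 0.000146 in DESeq2.

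The calcium-binding protein gene S100b (chr10:76253853-76261159, plus strand), which oligodendrocyte precursors also express, and the filament gene Gfap had the least support. S100b stood at 13.3 and 9.61 CPM in Emx1Cre mutants, against 7.76 and 6.38 CPM in Emx1Cre controls. Gfap (chr11:102887336-102900912, minus strand), the intermediate filament of mature and reactive astrocytes, stood at 26.5 and 29.5 CPM in Emx1Cre mutants, against 25.9 and 19.0 CPM in Emx1Cre controls. Mutant 1 and control 1 were nearly level for Gfap. The 95% intervals included 0 for both genes, from −0.24 to 1.64 for S100b (log2 fold change 0.70) and from −0.30 to 0.93 for Gfap (0.32). Their adjusted p in edgeR's test were 0.783 and 0.892.

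In NexCre mutants the same 10 markers showed no common direction. Of the 10, 5 had a log2 fold change above 0 and 5 below it, with a median of 0.048, against 0.00376 over all genes tested, of which 50.6% lay above 0. By edgeR's test and by DESeq2, 0 of the 10 were called. Over all genes edgeR called 0.0307%, 0.0175% higher and 0.0131% lower in this line, and DESeq2 0.158% higher and 0.209% lower. Before adjustment, at p under 0.05, 1 marker was higher (Id3) and 0 were lower, against 1.69% and 2.27% of all genes (3.96% in all). Both NexCre mutants lay above both NexCre controls for 3 markers (Agt, Sparcl1 and Id3), where 18.1% of all genes tested did so. The summed level was 996 and 870 CPM in NexCre mutants, inside the span of 1020 and 700 CPM in NexCre controls.

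**Figure D2:**
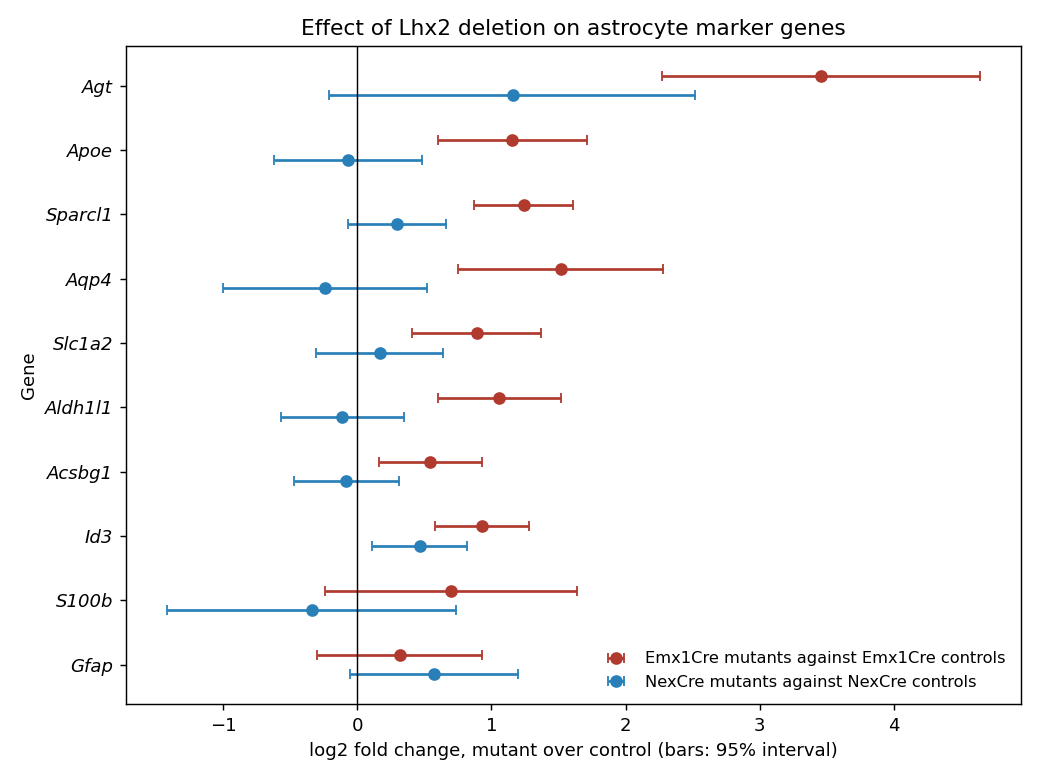
log2 fold change of each astrocyte marker, mutants over controls, in the Emx1Cre line (red) and the NexCre line (blue), with 95% intervals from the fit to all 8 libraries. The Emx1Cre points all lie to the right of 0 and those of S100b and Gfap have intervals that cross it, while in the NexCre line only the interval of Id3 stays clear of 0.

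Id3 had the smallest unadjusted p of the 10 in NexCre mutants. It stood at 25.1 and 22.7 CPM in NexCre mutants, against 15.7 and 18.8 CPM in NexCre controls. Both mutants lay above both controls, by 0.47 ± 0.16 on the log2 scale (95% interval 0.11 to 0.82), and edgeR's adjusted p was 1.0. Sparcl1 stood at 304 and 273 CPM in NexCre mutants and 252 and 218 CPM in NexCre controls, a log2 fold change of 0.30 ± 0.16 whose interval reached from −0.07 to 0.66. Agt rested on 26 and 17 reads in NexCre mutants and 13 and 4 reads in NexCre controls, so its log2 fold change of 1.16 ± 0.61 was not resolved at this depth. S100b was likewise near the limit, with 15 and 50 reads in NexCre mutants and 38 and 35 reads in NexCre controls.

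The remaining markers overlapped between NexCre groups, and NexCre control 1 stood above both mutants for 5 of these 7 genes. Aqp4 stood at 25.0 and 19.7 CPM in NexCre mutants and at 38.0 and 14.9 CPM in NexCre controls. Apoe showed the same layout, with 247 and 198 CPM in NexCre mutants and 300 and 167 CPM in NexCre controls. Aldh1l1 had 69.5 and 68.9 CPM in NexCre mutants, between the 88.8 and 60.3 CPM of NexCre controls. Slc1a2 had 270 and 236 CPM in mutants and 276 and 176 CPM in controls, and Acsbg1 28.9 and 34.1 CPM in mutants and 37.5 and 28.9 CPM in controls. For Gfap, mutant 1 was the high library, at 25.5 and 15.2 CPM in NexCre mutants and 11.4 and 15.9 CPM in NexCre controls (log2 fold change 0.57 ± 0.28).

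NexCre control 1 is the library with the high thalamic markers. The NexCre direction depended on which NexCre library was left out. Without NexCre control 1, 9 of the 10 markers had a log2 fold change above 0, with a median of 0.376. Without NexCre control 2, 4 of the 10 did, with a median of −0.189. Without NexCre mutant 1 the count was 7 (median 0.0926), and without NexCre mutant 2 it was 6 (median 0.17). In the Emx1Cre line all 10 stayed above 0 whichever of the 8 libraries was left out, with medians of 0.888 to 1.09. Without Emx1Cre mutant 2, the library high in striatal markers, the Emx1Cre median was 1.06. The part of the thalamic or striatal markers in these values was not tested.

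**Figure D3:**
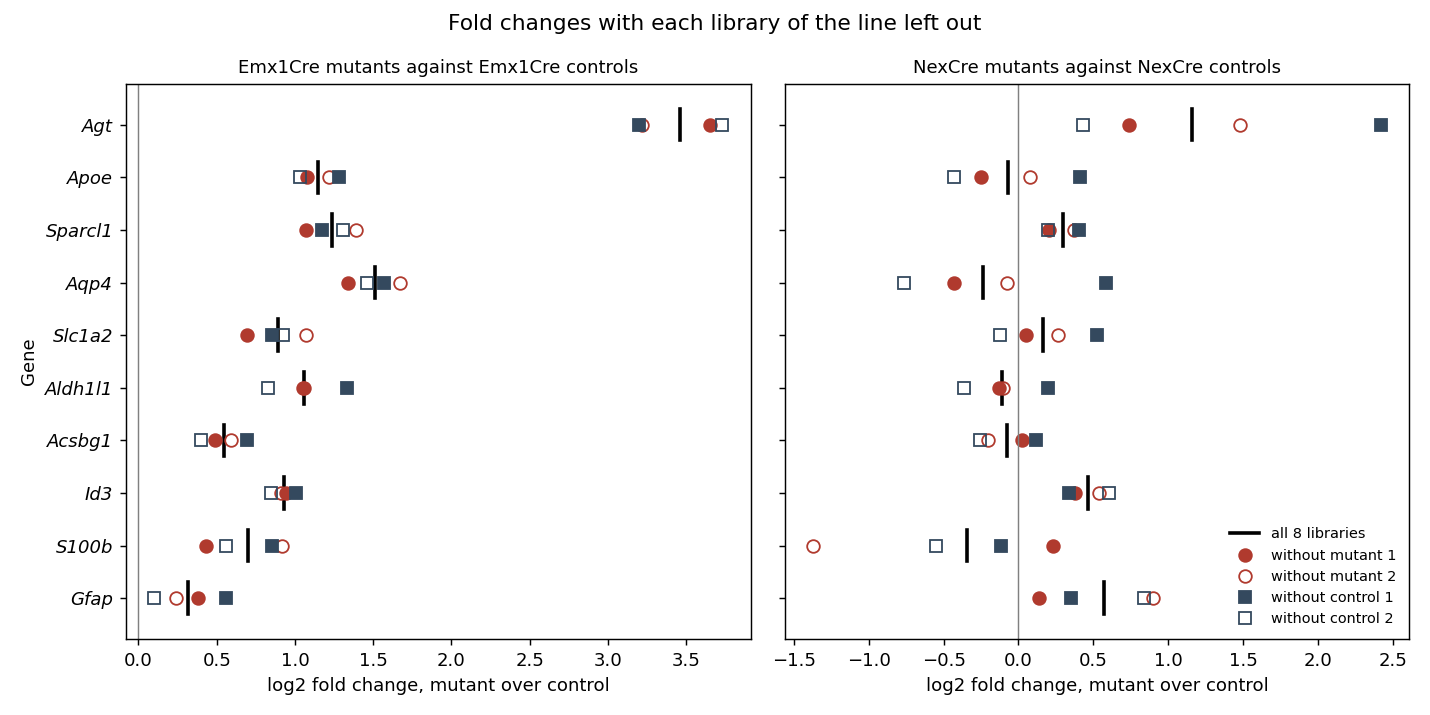
log2 fold change of each astrocyte marker (mutants over controls) with all 8 libraries (black bar) and with each library of the line left out (symbols), for the Emx1Cre line at left and the NexCre line at right; the axes differ in range. Every Emx1Cre value lies above 0, while for 6 NexCre genes the direction changed with a library left out.

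The difference between the 2 effects was tested directly, as the Emx1Cre log2 fold change minus the NexCre one. Because the lines also differ in library composition and in the level of subplate markers, driver line and library type cannot be told apart in this difference. It was above 0 for 9 of the 10 markers, with a median of 0.99, against −0.00777 over all genes tested, of which 49.3% lay above 0. The largest were Agt (2.30 ± 0.81), Aqp4 (1.75 ± 0.48), Apoe (1.22 ± 0.35), Aldh1l1 (1.17 ± 0.29) and S100b (1.04 ± 0.64). Gfap alone had a negative one, at −0.26 ± 0.39. edgeR's test called 0 of the 10, with adjusted p of 0.6 or more, and 0.00438% of all genes. At an unadjusted p under 0.05 it gave 7 of the 10, each with the larger effect in the Emx1Cre line, against 3.38% of all genes in that direction and 2.06% in the other (5.44% in all). DESeq2 called 3 of the 10 (Aqp4, Aldh1l1 and Sparcl1, adjusted p 0.0299, 0.0431 and 0.0389), where it called 0.313% of genes above 0 and 0.212% below it.

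Levels can be compared between genes only per length, and on the scale of CPM per kilobase of exon Sparcl1 and Apoe led in every group. Emx1Cre mutants averaged 567 for Sparcl1 and 548 for Apoe, and Emx1Cre controls 240 and 246, and in neither group did these 2 genes differ beyond the spread of the pools. The next gene in order was Aldh1l1 in Emx1Cre mutants, at 47.4, and Id3 in Emx1Cre controls, at 24.6. Aqp4 averaged 36.1 in Emx1Cre mutants, where it overlapped Acsbg1 (34.4), and 12.6 in Emx1Cre controls, where it lay below Slc1a2 (16.8) and Acsbg1 (23.6). S100b, Gfap and Agt filled the last places in both Emx1Cre groups, at 7.73, 6.64 and 5.27 in mutants and 4.76, 5.32 and 0.483 in controls. In the NexCre line Apoe and Sparcl1 again led, with 104 and 98.3 in mutants and 109 and 79.9 in controls, followed by Slc1a2 at 19.3 in mutants and 17.2 in controls. Mean levels in NexCre controls were below those in Emx1Cre controls for 9 of the markers, as with S100b at 1.03 and 7.07 CPM, and close for Slc1a2 at 226 and 221 CPM. The lines differ in library composition, so driver line and library type cannot be told apart in these levels, and they were not tested.

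Most further astrocyte genes also had higher values in Emx1Cre mutants. Of 32 other astrocyte markers, 30 had a log2 fold change above 0, with a median of 0.65. edgeR's test called 0 of them and gave 18 above and 0 below at p under 0.05 before adjustment, and DESeq2 called 12 higher. Of all genes, 45.9% had a fold change above 0, and 4.52% were above and 3.07% below at that p. DESeq2 called 0.84% higher and 0.6% lower. The Emx1Cre counts of the lists below stand beside these same shares. Gpr37l1, an orphan receptor of astrocytes, stood at 74.4 and 67.4 CPM in Emx1Cre mutants, against 36.6 and 35.9 CPM in Emx1Cre controls (0.97 ± 0.16, adjusted p 0.0965 in edgeR's test). In NexCre mutants 17 of the 32 were above 0, with a median of 0.03 and 0 called by edgeR or DESeq2, and before adjustment Mt2 and Gja1 were lower at p under 0.05. The gap junction gene Gja1 stood at 29.0 and 26.5 CPM in NexCre mutants and at 78.5 and 28.1 CPM in NexCre controls, so NexCre control 1 was again the high library.

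The partner genes of each marker were less uniform. Of 6 tested genes of glutamate uptake, 5 had a fold change above 0 in Emx1Cre mutants (median 0.35). Among them Slc1a3, the GLAST transporter of radial glia and astrocytes, was at 730 and 608 CPM in Emx1Cre mutants and 463 and 331 CPM in Emx1Cre controls (0.75 ± 0.19). Of 9 aquaporins and endfoot anchors, 7 were above 0 (median 0.23), led by Kcnj10, the inward rectifier that buffers potassium, at 128 and 107 CPM in Emx1Cre mutants and 73.1 and 58.9 CPM in Emx1Cre controls (0.83 ± 0.18). All 6 tested S100 genes were above 0 (median 0.66), including S100a16 at 0.77 ± 0.21. Of 15 lipid transport genes, 10 were above 0 (median 0.12), with apolipoprotein D (Apod) at 1.17 ± 0.22 and Lcat, which esterifies cholesterol, at 1.26 ± 0.34. Sparc, the closest relative of Sparcl1, was at 399 and 336 CPM in Emx1Cre mutants and 266 and 209 CPM in Emx1Cre controls (0.63 ± 0.19), while its list of 14 had a median of 0.19. edgeR's test called 0 genes of these 5 lists in either line. At an unadjusted p under 0.05 it gave 3, 3, 3, 3 and 1 higher in Emx1Cre mutants in the order named, and 0 lower. DESeq2 called 1, 1, 1, 2 and 0 higher. In NexCre mutants DESeq2 called S100a10 lower, at 8.18 and 9.21 CPM in NexCre mutants and 17.5 and 22.7 CPM in NexCre controls (−1.21 ± 0.18).

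Other partner lists were mixed. The Agt partners had a fold change above 0 in 5 of 8 tested genes in Emx1Cre mutants (median 0.21). Of these 8, 0 were called by edgeR or DESeq2 and 0 had an unadjusted p under 0.05 in edgeR's test. The converting enzyme Ace, at 8.21 and 18.5 CPM in Emx1Cre mutants and 5.06 and 7.49 CPM in Emx1Cre controls, had the lowest p of them. Ren1, the renin gene, had 0 reads in 2 NexCre libraries. The other Id genes went different ways: Id1 was 0.56 ± 0.19, Id4 was 0.04 ± 0.39 and Id2, which cortical neurons also express, was −0.84 ± 0.19. Id2 stood at 149 and 167 CPM in Emx1Cre mutants, against 244 and 322 CPM in Emx1Cre controls, and DESeq2 called it lower (adjusted p 0.0151, against 0.202 in edgeR's test). The folate enzymes other than Aldh1l1 were above 0 in 4 of 10 genes (median −0.13), and Aldh1l2 and Shmt1 were lower at p under 0.05 before adjustment. All 7 tested acyl-CoA synthetases were above 0, by 0.01 to 0.4 (median 0.07), with 0 at an unadjusted p under 0.05. The intermediate filament genes were above 0 in 4 of 7 (median 0.12). Of them, the muscle and glial filament gene Synm was higher and the neurofilament gene Nefm lower at that level. edgeR's test and DESeq2 called 0 genes in these last 3 lists.

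Regulators of gliogenesis showed no common direction in Emx1Cre mutants. Of 16 tested, 9 had a log2 fold change above 0 in Emx1Cre mutants, with a median of 0.19 and 0 called by edgeR or DESeq2. Before adjustment, 2 were above and 1 below at p under 0.05. The higher ones were Stat3, the transducer of cytokine signals, at 49.9 and 53.3 CPM in Emx1Cre mutants and 36.7 and 36.5 CPM in Emx1Cre controls, and Il6st, the gp130 receptor subunit upstream of it, at 70.8 and 58.3 CPM in mutants and 47.1 and 37.9 CPM in controls. Nfia was the lower one (−0.39 ± 0.16). In NexCre mutants 12 of the 16 were above 0, as were 50.6% of all genes tested, with a median of 0.14 and 0 called by edgeR. At an unadjusted p under 0.05, edgeR's test gave Notch1 higher and Lifr, a receptor of gliogenic cytokines, lower. Notch1 stood at 150 and 187 CPM in NexCre mutants and 136 and 108 CPM in NexCre controls (0.47 ± 0.17). DESeq2 called Lifr lower, at 35.6 and 29.8 CPM in NexCre mutants and 61.0 and 53.6 CPM in NexCre controls (−0.81 ± 0.17, DESeq2 adjusted p 0.0167).

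**Figure D4:**
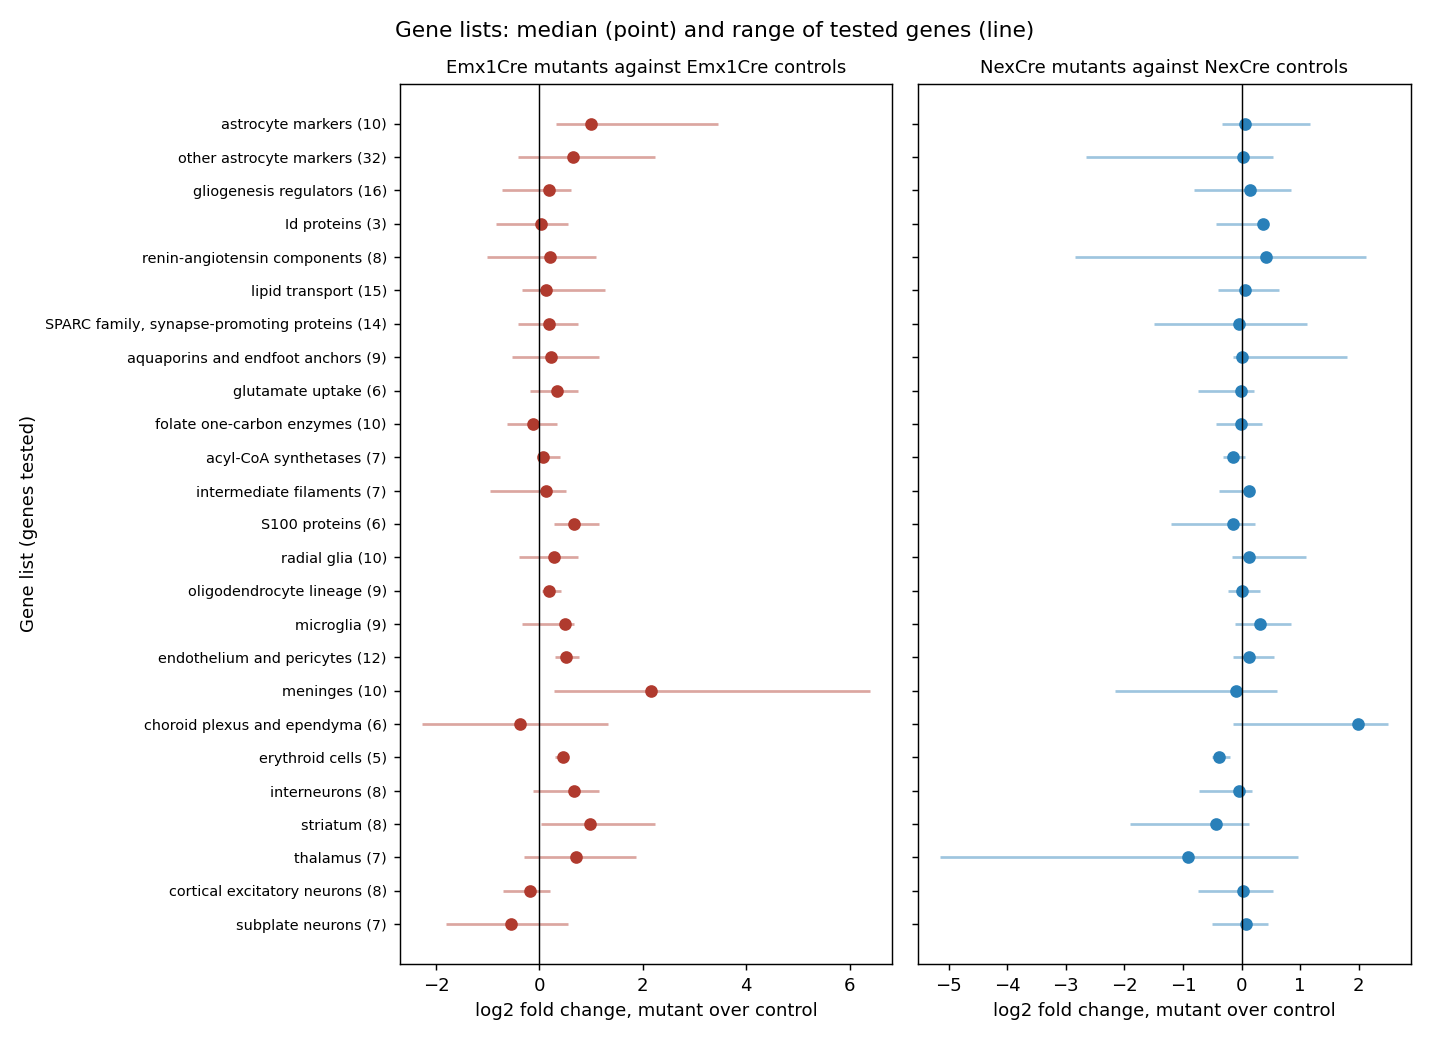
Median log2 fold change (point) and lowest to highest value (line) of the tested genes of each list, mutants over controls, in the Emx1Cre line (left) and the NexCre line (right); the axes differ in range. The 10 astrocyte markers have a median near 1 in the Emx1Cre line and near 0 in the NexCre line, and meningeal, striatal, thalamic and interneuron markers also lie to the right in the Emx1Cre line.

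Markers of several other cell types also had fold changes above 0 in the Emx1Cre line. All 12 endothelial and pericyte markers had a fold change above 0 (median 0.52), and their summed level was 544 and 417 CPM in Emx1Cre mutants and 365 and 306 CPM in Emx1Cre controls. Meningeal markers were above 0 in 10 of 10 with a median of 2.15, larger than that of the astrocyte markers, and with sums of 236 and 402 CPM in mutants and 194 and 195 CPM in controls. In that list Slc6a13 had 0 reads in Emx1Cre control 2. Radial glia markers were above 0 in 9 of 10 (median 0.29), with sums of 3616 and 2775 CPM in mutants and 2702 and 1847 CPM in controls. Microglial markers were above 0 in 8 of 9 (median 0.49), with sums of 141 and 209 CPM in mutants and 143 and 113 CPM in controls, and oligodendrocyte lineage markers in 9 of 9 (median 0.19), with 958 and 1042 CPM in mutants and 923 and 826 CPM in controls. Striatal markers were above 0 in 8 of 8 with a median of 0.97, close to that of the astrocyte markers. Their sum was 462 CPM in mutant 2, yet mutant 1, at 166 CPM, lay below both controls, at 180 and 194 CPM. Interneuron markers were above 0 in 7 of 8 (median 0.66), with sums of 517 and 839 CPM in mutants and 414 and 524 CPM in controls. Thalamic markers were above 0 in 6 of 7 (median 0.70), with 45.8 and 58.3 CPM in mutants and 36.6 and 36.5 CPM in controls, and erythroid markers in 5 of 5 (median 0.45). Choroid plexus and ependyma markers were above 0 in 2 of 6 (median −0.38). Markers of the dissected subplate neurons themselves were above 0 in 3 of 7 (median −0.54), with sums of 296 and 296 CPM in mutants and 350 and 392 CPM in controls. Excitatory neuron markers were above 0 in 2 of 8 (median −0.18), with sums of 1548 and 1487 CPM in mutants and 1609 and 2015 CPM in controls. edgeR's test called 0 genes of these lists, while at an unadjusted p under 0.05 it gave 5 endothelial, 8 meningeal, 2 radial glial, 1 microglial, 0 oligodendrocyte, 3 striatal, 4 interneuron, 1 thalamic and 0 erythroid genes higher. It gave 3 excitatory neuron, 4 subplate and 1 ependymal gene lower. The 1 radial glial gene that DESeq2 called higher was Slc1a3, also counted above under glutamate uptake and other astrocyte markers. DESeq2 also called 3 meningeal genes and 1 thalamic gene higher and 3 subplate genes lower. The part of these cells in the astrocyte marker values was not tested.

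Among the genes whose profile was most like that of the astrocyte markers were Amot, Selenop, Cdh5, Itih5 and Sox2ot, with Pearson r of 0.985 to 0.976 over the 8 libraries after each line was centred on its mean. The points share the split between Emx1Cre mutants and controls, so r mainly reflects it. Of these, Selenop, a secreted selenium carrier, stood at 171 and 167 CPM in Emx1Cre mutants, against 72.6 and 63.4 CPM in Emx1Cre controls. Cdh5, the vascular endothelial cadherin, stood at 31.6 and 28.4 CPM in Emx1Cre mutants, against 20.3 and 17.9 CPM in Emx1Cre controls. Within the markers themselves, r with the mean of the other 9 was 0.957 for Sparcl1 and 0.951 for Apoe, and fell to 0.526 for S100b and 0.3 for Gfap.

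Overlapping genes could take up little of the reads of most markers. Where the annotation places another gene across a marker, antisense and noncoding genes held at most 0.745% of the marker's own reads (Gm26703 at Sparcl1). The exception was S100b, which overlaps Dip2a on the opposite strand, a gene with 2546 to 5441 reads per library. The library kit named in the labels does not mark strand, so reads of S100b and Dip2a cannot be told apart where they overlap and S100b values are uncertain.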

How the data were processed

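The deposited values are read counts per gene symbol, made by the authors, with a separate table for each line. HISAT2, SAMtools and DESeq2 were used with mm10, per the submitters' processing notes. Which program counted the reads, and every version, is not given in the sources used here. Reads were paired, 100 bases long per the labels. Counts from 2 to 21 were even in 66.4% to 74.5% of cases, so a pair may count as 2 reads, which was not tested. Symbols turned into date numbers (24 or 26 entries per table, 0.239% to 0.269% of reads) were left out, leaving 55202 genes, 96.8% matched to GENCODE M21 for position and exon length.

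edgeR 4.0.16 in R 4.3.3 was run on the counts as deposited: filterByExpr (minimum count 10, minimum total 15; 22820 genes), TMM, 1 quasi-likelihood fit of all 8 libraries with group as the only term (4 residual and 5.95 prior degrees of freedom), two-sided, with Benjamini-Hochberg adjustment at 0.05. The biological coefficient of variation was 26.2%. SE is the log2 fold change over the root of F. Separate pools are taken as replicates as far as the labels state, so p-values measure the spread between these pools. Alternatives were RLE and upper-quartile scaling, no filter, DESeq2 1.42.0, a strict filter (mean count of 20, and at least 2 libraries at 1 CPM), each line alone, a replicate block and leaving out each library.

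The markers and lists were chosen with earlier results of these data known. Lists are described by counts and medians. The rule for names took all 10 markers, Lhx2, of each list up to 4 called genes or the 2 with the lowest p, and the 6 genes most alike (log2 of CPM plus 0.5, mean of at least 1 CPM per line). Not every gene it names is reported here. Ren1 was named after its values were seen, or by its role.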

Additional observations from a re-analysis of the deposited data

How the results depend on the processing

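The count of 10 astrocyte markers called higher in Emx1Cre mutants was 1 under RLE scaling, upper-quartile scaling and the strict filter. It was 7 with no low-count filter, 7 by DESeq2, 5 with the replicate block and 0 with each line fitted alone. With single libraries left out it ran from 0 to 3. The count with a called difference of effects was 0 as reported, 4 with no filter, 3 by DESeq2, and 0 to 1 with single libraries left out. Over all genes, the Emx1Cre comparison called 585 with no filter, 300 by DESeq2 and 0 with each line alone, against 18 as reported. The difference of effects called 408 with no filter and 99 by DESeq2, against 1 as reported. The causes were not tested. The replicate block adds the pool number within each line. Pools of the same number deviated together (r = 0.389 in the Emx1Cre line and 0.189 in the NexCre line, across 15779 genes), but 2 pairs per line do not establish a pairing, and the block called 82 genes in all, against 18 without it. No other count of called markers changed. For single markers, NexCre log2 fold changes reversed 8 times with 1 NexCre library left out. Their ranges were −0.766 to 0.587 (Aqp4, reversed without control 1), −0.43 to 0.41 (Apoe, without control 1 or mutant 2), −0.36 to 0.196 (Aldh1l1, without control 1), −0.125 to 0.525 (Slc1a2, without control 2), −0.254 to 0.119 (Acsbg1, without control 1 or mutant 1) and −1.37 to 0.229 (S100b, without mutant 1). The difference of effects of Gfap ran from −0.584 to 0.195 and reversed without NexCre mutant 1. Depth limits Agt and S100b in the NexCre line, with at most 26 and 50 reads per library.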
